A study of Mus musculus with 8 samples.

Results

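The heat shock chaperones described here are 10 genes, chosen by name: the inducible Hsp70 genes Hspa1a and Hspa1b, the J-domain protein gene Dnajb1, the Hsp110 gene Hsph1, the small heat shock protein gene Hspb1, the constitutive Hsp70 gene Hspa8, the cytosolic Hsp90 genes Hsp90aa1 and Hsp90ab1, and the mitochondrial chaperonin genes Hspd1 and Hspe1. All 10 were found among the 31053 genes of the 4 expression matrices. CD8 T cells had been sorted from 2 organs, spleen and liver, of C57BL/6 mice without a transgene (wild type, WT) and of EomesTg/Tg mice on that background. The latter (labelled Eomes TG, here EomesTG) express the T-box factor Eomes from a transgene in their T cells. The promoter that drives the transgene and the age of the mice are not given in the sources used here. Each sort started from a pool of 3 mice. Every combination of genotype and organ is therefore 1 droplet library of RNA with its library of T cell receptors (TCR), and the 2 organs of a genotype come from the same pool. The series asked what added Eomes does to gene expression and clones of these cells.

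Heat shock chaperones bind unfolded proteins and help them refold. Hsp70 works in cycles of ATP hydrolysis that J-domain proteins start and exchange factors such as Hsp110 end, while Hsp90 takes over partly folded clients such as kinases and hormone receptors. In resting cells the factor HSF1 is held inactive, and after heat, dissociation or other stress it binds arrays of inverted GAA units in promoters and switches on the inducible members within minutes. Constitutive members are present in all cells and rise with protein synthesis, for example in activated T cells.

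The libraries held 5333 T cells in WT spleen, 5726 in EomesTG spleen, 3127 in WT liver and 4517 in EomesTG liver, and values listed without names follow this order. They held between 18940149 and 28754966 unique molecular identifiers (UMIs, each standing for 1 captured RNA molecule), with medians of 3918 to 5461 UMIs per cell, and levels are given as CPM, a gene's UMIs scaled to a common library total. The 5 T cell markers Cd3e, Cd3d, Cd8a, Cd8b1 and Trac summed to 3959 to 5481 CPM and none was at 0. Pairs of libraries shared 23 to 57 cell barcodes. With 1 library per group there is no replicate, so no difference was tested, no p-value is given, and all intervals are exact 95% intervals that cover counting error only. In a comparison of 2 libraries, neither genotype nor organ can be told apart from the sort and the treatment of each suspension.

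The sequences just before the transcription starts show which of the members with a window hold exact pairs of the units that HSF1 reads. No window was matched for Hspa8, Hsp90aa1 and Hsp90ab1. Shown are the 250 bases before the start, 5′ to 3′ on the strand of the gene, from RefSeq (GRCm38.p6). Capitals mark each pair of inverted units, searched as GAANNTTC or TTCNNGAA. Each motif is its own reverse complement, so 1 search covers both strands, and neighbouring matches can overlap. Of 32851 mouse promoter windows of this length, 12.8% held at least 1 such pair and 0.466% a run of 3 units. The windows are chr17:34972157-34972406 for Hspa1a, chr17:34959239-34959488 for Hspa1b, chr5:135887669-135887918 for Hspb1, chr5:149636337-149636586 for Hsph1 and chr1:55087898-55088147 for Hspe1.
Hspa1a: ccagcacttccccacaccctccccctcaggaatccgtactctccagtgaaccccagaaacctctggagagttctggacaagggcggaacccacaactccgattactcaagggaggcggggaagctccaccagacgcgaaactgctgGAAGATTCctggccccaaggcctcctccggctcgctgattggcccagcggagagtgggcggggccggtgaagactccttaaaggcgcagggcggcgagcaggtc
Hspa1b: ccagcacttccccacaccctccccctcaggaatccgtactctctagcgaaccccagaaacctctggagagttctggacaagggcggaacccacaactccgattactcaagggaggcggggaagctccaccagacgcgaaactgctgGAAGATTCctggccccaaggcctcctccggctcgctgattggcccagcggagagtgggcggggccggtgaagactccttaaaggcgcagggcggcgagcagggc
Hspb1: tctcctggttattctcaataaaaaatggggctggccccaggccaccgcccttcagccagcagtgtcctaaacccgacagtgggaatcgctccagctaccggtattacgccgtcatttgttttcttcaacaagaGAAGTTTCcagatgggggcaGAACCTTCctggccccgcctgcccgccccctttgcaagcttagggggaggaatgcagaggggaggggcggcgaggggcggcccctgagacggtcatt
Hsph1: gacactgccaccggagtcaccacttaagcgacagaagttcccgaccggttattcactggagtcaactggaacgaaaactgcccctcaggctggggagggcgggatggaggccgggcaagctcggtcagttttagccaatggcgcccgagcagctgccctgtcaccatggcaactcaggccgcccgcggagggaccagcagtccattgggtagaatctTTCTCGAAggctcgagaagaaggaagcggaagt
Hspe1: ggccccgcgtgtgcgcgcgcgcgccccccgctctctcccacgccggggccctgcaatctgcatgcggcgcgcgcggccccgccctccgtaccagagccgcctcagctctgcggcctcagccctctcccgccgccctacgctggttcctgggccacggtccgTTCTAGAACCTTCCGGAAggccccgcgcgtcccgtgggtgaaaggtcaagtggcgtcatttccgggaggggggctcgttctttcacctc
Hspa1a and Hspa1b each held 1 pair, whose first base lay 104 bases before the start. Hspb1 held 2 pairs, 117 and 97 bases before it. Hsph1 held 1, at 33 bases in the window shown and at 54 bases in its other RefSeq window. The mitochondrial pair Hspe1 and Hspd1 lies head to head on chromosome 1, and the window of Hspe1 held 3 overlapping pairs from 89 bases before its start. The same 3 pairs lay in 1 of the 2 RefSeq windows of Hspd1. No match was found in the 2 windows of Dnajb1, and 1 of them (chr8:83608298-83608547) lies inside the annotated gene (83608193 to 83612653). Only exact units were searched, so a missing match does not show that units read by HSF1 are absent. A match describes these letters and is no measurement of binding.

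Hspa1a and Hspa1b are near-identical copies on chromosome 17, each with 1 exon in GENCODE M21 (GRCm38 34969190 to 34972156 for Hspa1a and 34956436 to 34959238 for Hspa1b, both on the minus strand). Their promoter windows were identical at 247 of 250 bases. The 3 differences, counted from 1 at the 5′ end of the printed window with the base of Hspa1a first, were C44T, T47C and T249G. Their transcripts had 4 mismatches in the first 500 bases, the end that a 5′ library reads. The split of UMIs between the 2 copies is therefore uncertain, and their sum is the safer quantity. Levels and ratios below are nonetheless given for each copy, mostly for Hspa1a.

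The inducible members separated the libraries by far more than the constitutive ones. Hspa1a, which encodes the main stress-induced Hsp70, was at 2.85 CPM in WT spleen (82 UMIs), 204 in EomesTG spleen (5756 UMIs), 531 in WT liver (10055 UMIs) and 1886 in EomesTG liver (38718 UMIs). Hspa1b followed at 3.27, 112, 245 and 750 CPM. No counting intervals overlapped between libraries for either gene, and the same order held for both. In spleen the log2 ratio of EomesTG to WT was 6.16 (5.84 to 6.49) for Hspa1a and 5.10 (4.81 to 5.41) for Hspa1b. In liver, where the WT library was already high, it was 1.83 (1.80 to 1.86) and 1.61 (1.57 to 1.66). Liver exceeded spleen by 7.54 (7.23 to 7.87) for Hspa1a in WT and by 3.21 (3.17 to 3.25) in EomesTG.

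**Figure D1:**
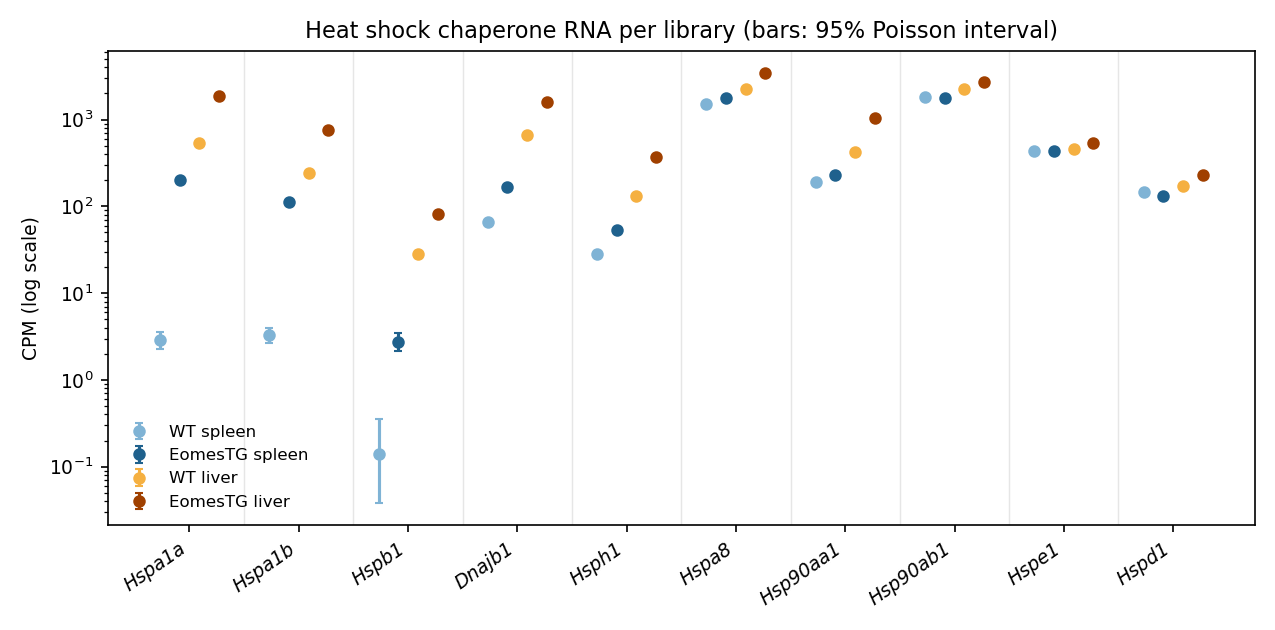
Level of each of the 10 chaperone genes in the 4 libraries, in CPM on a log axis, with bars for the exact 95% Poisson interval where it is wider than the point. Hspa1a spans 2.85 to 1886 CPM between WT spleen and EomesTG liver, while Hspe1 stays between 432 and 541 CPM.

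Dnajb1, which encodes the J-domain partner that delivers clients to Hsp70, was at 66.9, 167, 668 and 1593 CPM. EomesTG exceeded WT by a log2 ratio of 1.32 (1.24 to 1.40) in spleen and 1.25 (1.22 to 1.28) in liver, and liver exceeded spleen by 3.32 in WT and 3.25 in EomesTG. Without clusters mostly of 1 library, EomesTG over WT liver was 0.63 and liver over spleen of EomesTG 2.65. The WT spleen library thus held a base level of Dnajb1 RNA that Hspa1a lacked. Hsph1, the Hsp110 that frees Hsp70 from ADP, was at 28.3, 52.8, 133 and 369 CPM, with log2 ratios of EomesTG to WT of 0.90 (0.77 to 1.02) in spleen and 1.47 (1.41 to 1.54) in liver. The liver value of Hsph1 was 0.79 with each clone counted once and 0.83 without clusters mostly of 1 library.

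Hspb1, which encodes the small heat shock protein Hsp27 that holds unfolding proteins without ATP, had 4 UMIs in WT spleen (0.139 CPM), 78 in EomesTG spleen (2.76 CPM), 529 in WT liver (27.9 CPM) and 1663 in EomesTG liver (81.0 CPM). Its log2 ratio of EomesTG to WT was 4.31 in spleen, with an interval of 2.90 to 6.22 set by the 4 UMIs of WT, and 1.54 (1.39 to 1.68) in liver, or 0.92 with each clone counted once. These levels came from few cells. A UMI of Hspb1 was seen in 49 of 5726 cells of EomesTG spleen, in 87 of 3127 cells of WT liver (2.78%, exact binomial 2.23 to 3.42) and in 262 of 4517 cells of EomesTG liver (5.80%, 5.14 to 6.52). The highest single cells held 12, 68 and 54 UMIs in these libraries.

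The cytosolic Hsc70 and Hsp90 genes were abundant in all libraries, and Hsp90aa1 differed more than the other two. Hspa8, the Hsc70 that serves folding in unstressed cells, was at 1505, 1782, 2259 and 3483 CPM, and EomesTG exceeded WT by 0.24 (0.22 to 0.26) in spleen and 0.62 (0.61 to 0.64) in liver on the log2 scale. Hsp90aa1, the more inducible Hsp90, was at 192, 233, 425 and 1032 CPM, with ratios of 0.28 (0.23 to 0.33) and 1.28 (1.24 to 1.32). Hsp90ab1, the constitutive Hsp90, was at 1800, 1777, 2281 and 2721 CPM. Its ratio was −0.018 (−0.036 to −0.00033) in spleen, a sign that turned under 4 alternatives (0.030 to 0.081), and 0.25 (0.24 to 0.27) in liver. In liver the interval of Hsp90aa1 thus lay wholly above that of Hsp90ab1.

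The mitochondrial chaperonins form 1 folding chamber, and their levels spanned 1.25-fold (Hspe1) and 1.77-fold (Hspd1) over the 4 libraries. Hspe1, the lid of the Hsp60 barrel, was at 432, 437, 458 and 541 CPM, with a log2 ratio of EomesTG to WT of 0.017 (−0.019 to 0.053) in spleen and 0.24 (0.20 to 0.28) in liver. Hspd1, the Hsp60 barrel itself, was at 147, 130, 170 and 230 CPM. Its ratio was −0.18 (−0.24 to −0.11) in spleen, but 0.0073 when every cell weighed the same and 0.023 when each clone was counted once, and it was 0.43 (0.37 to 0.50) in liver. The range of Hspe1 was the narrowest of the 10 genes and that of Hspa1a, 661-fold, the widest. For Hspe1 the excess of liver over spleen was 0.084 (0.045 to 0.12) in WT and 0.31 (0.27 to 0.35) in EomesTG, and it turned to −0.080 and −0.019 when ribosomal protein and mitochondrial genes were left out of the totals.

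At a threshold of 1.5-fold, 5 of the 10 genes were higher in EomesTG than in WT spleen (Hspa1a, Hspa1b, Hspb1, Dnajb1 and Hsph1), beside 3.01% of the 10774 genes with at least 50 UMIs over both libraries. In liver 7 of 10 were higher in EomesTG, the same 5 with Hsp90aa1 and Hspa8, beside 14.1% of all genes. Between organs, 7 of 10 were higher in liver than in spleen of WT, beside 11.8%, and 9 of 10 in EomesTG, beside 24.0%, with Hspe1 the exception. None was 1.5-fold lower in any of the 4 comparisons, beside 5.38, 6.96, 3.69 and 10.0% of all genes. The median log2 ratio of the 10 genes was 0.59, 1.27, 1.69 and 2.44 in these comparisons, against −0.0069, 0.12, 0.057 and 0.19 for all genes. The median of all genes depends on the scaling: leaving ribosomal protein and mitochondrial genes out of the totals shifted it by −0.16 in EomesTG over WT liver, by −0.16 in liver over spleen of WT and by −0.33 in liver over spleen of EomesTG, and the counts were then 6, 6 and 7 of 10. Hspa8 stood just past the threshold, with log2 ratios of 0.62 in EomesTG over WT liver and 0.59 in liver over spleen of WT, as did Hsp90ab1 at 1.53-fold in liver over spleen of EomesTG. The comparisons share libraries and are not independent of each other. The summed level of the 10 genes was 4177, 4897, 7197 and 12686 CPM, a range of 3.04-fold.

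A CPM level cannot tell more cells with the RNA from more RNA per cell, so the distribution over cells was read after every cell was thinned to 2000 UMIs, which left out 254, 373, 194 and 586 shallower cells. A UMI of Hspa1a was found in 0.610% of WT spleen cells (0.415 to 0.865), 23.5% of EomesTG spleen cells (22.4 to 24.7), 37.3% of WT liver cells (35.5 to 39.0) and 63.3% of EomesTG liver cells (61.8 to 64.8). Without thinning these shares were 1.20, 34.6, 47.0 and 68.6%. After thinning to 2000 UMIs, a UMI of either Hsp70 copy, Hspa1a or Hspa1b, was found in 1.18, 34.3, 48.0 and 77.7% of cells. The levels among cells differed as well. Cells with at least 5 UMIs of Hspa1a per 2000 made up 0, 0.691, 9.07 and 33.5% of cells, where 0 of 5079 cells in WT spleen allows a share of up to 0.0591%, taken as 3 counts of the total. The highest cell held 2, 9, 26 and 63 UMIs.

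**Figure D2:**
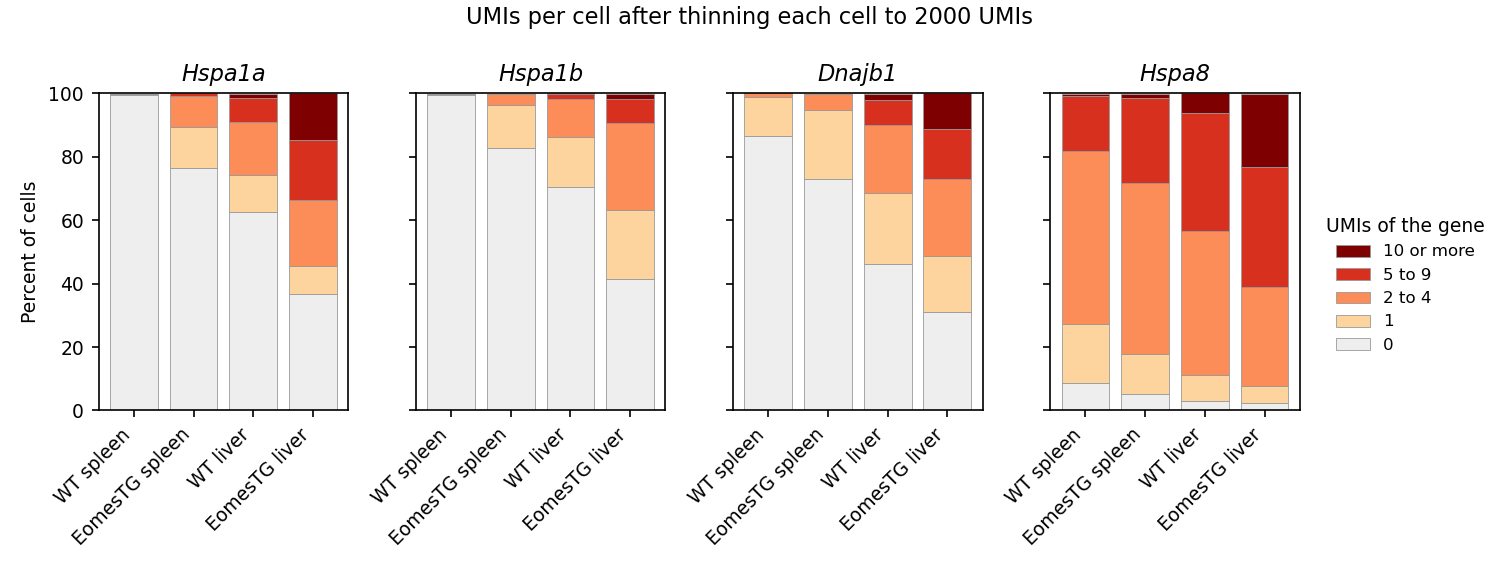
Share of cells (percent) with 0, 1, 2 to 4, 5 to 9 and 10 or more UMIs of 4 chaperone genes in each library, after thinning each cell to 2000 UMIs. For Hspa1a, 36.7% of EomesTG liver cells had no UMI and 14.8% had 10 or more, while Hspa8 was detected in 91.5 to 97.7% of cells in every library.

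Hspa1a RNA was spread unevenly over cells in EomesTG spleen and both livers. The variance of its thinned count was 1.11 times the mean in WT spleen, 2.03 times the mean in EomesTG spleen, 4.60 times in WT liver and 8.11 times in EomesTG liver, where an even (Poisson) spread gives equal values. This ratio can rise with the mean alone, so it does not rank the libraries by unevenness. The top 10% of cells held 65.7% of Hspa1a UMIs in EomesTG spleen, 57.9% in WT liver and 42.3% in EomesTG liver. In WT spleen, where 0.610% of cells had a UMI, they held 100%. That share depends on the mean as well. An even spread of the same mean would have put a UMI into 33.9% of EomesTG spleen cells, against 23.5% observed, and into 98.5% of EomesTG liver cells, against 63.3%. Dnajb1 in EomesTG spleen lay near an even spread, in 27.1% of cells against 28.4%, and in 13.4% against 13.5% in WT spleen. In liver it was uneven too, with a variance of 4.07 times the mean in WT and 8.52 times in EomesTG. Hspa8 was found in 91.5% of WT spleen cells and in 94.9 to 97.7% of cells of the other libraries, with medians of 2, 3, 4 and 6 UMIs per 2000. Cells carried a median of 7, 9, 13 and 22 UMIs of all 10 genes per 2000. In EomesTG liver 10% of cells lay at 9 UMIs or below and 10% at 51 or above.

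In liver, cells with a UMI of 1 inducible member more often had a UMI of another, and in spleen this depended on the pair. In EomesTG liver, 69.8% of cells with Hspa1a also had an Hspa1b UMI, against 39.3% of cells without Hspa1a, and in WT liver 50.1% against 17.1%. In EomesTG spleen the same shares were 27.9% and 14.1%, and in WT spleen 0 of the 31 cells with Hspa1a had Hspa1b, which allows a share of up to 9.68% (3 counts of the total). For Dnajb1 the shares were 32.2% and 25.5% in EomesTG spleen, 69.3% and 44.5% in WT liver, and 74.7% and 58.6% in EomesTG liver. For Hsph1 they were 28.7% and 17.4% in WT liver and 46.9% and 32.8% in EomesTG liver, but 10.0% and 9.31% in EomesTG spleen and 3.23% and 5.35% in WT spleen. Hspd1 showed little of this, at 20.7% and 21.3% in EomesTG spleen and 24.4% and 24.7% in WT liver, although in EomesTG liver it was at 31.9% and 27.8%. For Hsp90aa1 the shares were 55.6% and 45.4% in WT liver and 74.2% and 63.5% in EomesTG liver. Those of Hspe1 were 58.5% and 54.0% in WT liver and 58.7% and 51.8% in EomesTG liver. Hspa8 and Hsp90ab1 were found in most liver cells with or without Hspa1a. In liver, joint detection was thus not limited to Hspa1b, Dnajb1 and Hsph1. The 2 Hsp70 copies share most of their sequence, so their joint detection can include reads assigned to the wrong copy.

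A share of cells with a UMI can include free RNA of the suspension, and no cell type here is known to lack Hspa1a. The lowest share was the 0.610% of WT spleen, with a median of 5025 UMIs per cell against 4751.5 in EomesTG spleen. The 2 spleens differ in their mix of cells: cluster 1 of the clustering described next held 156 cells of WT and 2150 of EomesTG spleen. Within EomesTG spleen the share of cells with a UMI of either Hsp70 copy was 33.1, 34.3, 36.8 and 33.0% in 4 bins of cells by mitochondrial share, from lowest to highest. By UMIs per cell it was 32.1, 33.1, 35.5 and 36.4%. In this library the share thus stayed within 32.1 to 36.8% over both splits. In WT liver the share fell from 53.9% in the shallowest bin to 41.7% in the deepest. The median mitochondrial share was 2.95, 2.83, 2.41 and 1.65% in the 4 libraries. The part of free RNA in these shares was not tested.

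To ask whether all kinds of cells in a library were raised alike, cells of the 4 libraries were clustered together. The chaperone genes and 15 listed immediate early genes were left out, which gave 17 clusters. Other stress genes such as Ppp1r15a were not on these lists, so clusters may still reflect them. Cluster 5 was led by Fos, Ppp1r15a and Klf2, and 1068 of its 1574 cells came from WT liver and 451 from EomesTG liver. By fixed markers, cluster 7 was naive-like, 4 effector-like, 8 cycling-like, 9 interferon-responding-like, 11 and 12 NK receptor-like, and 0 exhausted-like. The others are named by number and leading genes. Clusters 0, 1 and 14 each came mostly from 1 library (98.5% EomesTG liver, 87.6% EomesTG spleen and 89.8% EomesTG liver), so they may reflect that library.

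In spleen, 9 clusters had at least 50 cells in both genotypes, and Hspa1a was at least 1.5-fold higher in EomesTG in 9 of 9, beside 5.48% of all pairs of a gene and a cluster that were measured. The log2 ratio was 6.38 (5.49 to 7.45) in naive-like cluster 7, at 203 against 2.43 CPM, 6.46 (5.08 to 8.35) in effector-like cluster 4, at 147 against 1.67 CPM, and 6.82 (6.09 to 7.66) in cluster 3 (Cd163l1, Gzmm), at 273 against 2.42 CPM. It was lower in cycling-like cluster 8 (4.59, 3.46 to 5.97) and in interferon-responding-like cluster 9 (4.55, 3.67 to 5.58). In cluster 13 (Lad1, Utf1, Xcl1, Egr2), 116 WT cells had 0 UMIs of Hspa1a and 125 EomesTG cells had 109, which is at least 41.2-fold higher with the WT side set to 3 counts. That figure leaves out the counting error of the 109 UMIs, and the exact interval of the log2 ratio starts at 5.04. Dnajb1 was higher in 9 of 9 clusters (0.63 to 1.53) and Hspa1b in 9 of 9 (3.51 to 5.98). Hsph1 was higher in 7 of 9, with −0.14 the lowest. Hspb1 had 0 to 29 UMIs per cluster in EomesTG spleen and 0 or 1 in WT spleen, too few for ratios.

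**Figure D3:**
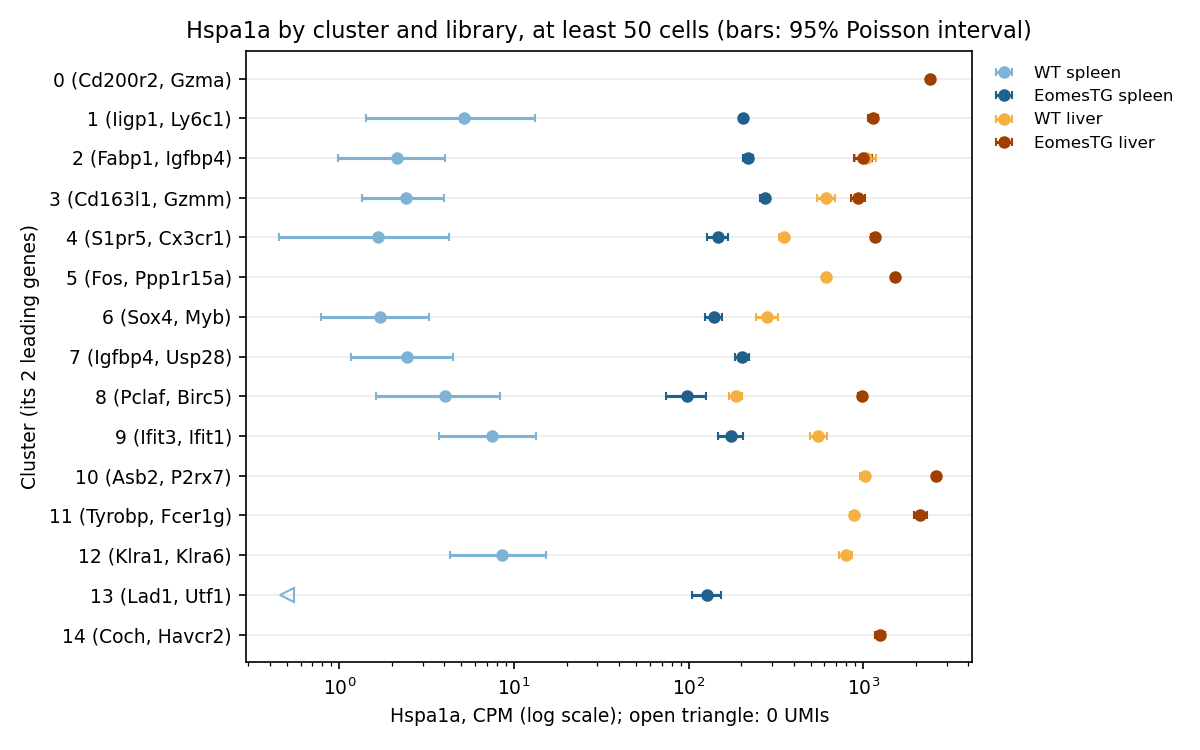
Hspa1a in CPM (log axis) for each cluster with at least 50 cells in a library, with bars for the exact 95% Poisson interval. WT spleen clusters lie at or below 8.57 CPM, EomesTG spleen clusters between 97.4 and 273, WT liver clusters between 186 and 1032, and EomesTG liver clusters between 937 and 2610.

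Hspa1a was thus raised in all 9 clusters of EomesTG spleen that were compared, but not to one level. The highest, cluster 3, was 2.80-fold above the lowest, cycling-like cluster 8, which held 51 cells. The share of cells with an Hsp70 UMI ran from 14.0% of cells (5.82 to 26.7) in cluster 8 to 41.9% (38.4 to 45.5) in cluster 3. In WT liver the range was 5.55-fold, from 186 CPM in cluster 8 to 1032 in cluster 2 (Fabp1, Igfbp4, Alb), and in EomesTG liver 2.78-fold, from 937 in cluster 3 to 2610 in cluster 10 (Asb2, P2rx7). Cycling-like cells were the lowest cluster in EomesTG spleen and WT liver for Hspa1a, Hspa1b and Dnajb1. Their median of 12038 UMIs per cell stood above the 3225 to 6265 of the other numbered T cell clusters, and the part of this depth in their low level was not tested. Leading genes of cluster 2 include the hepatocyte genes Alb, Fabp1 and Serpina1b. The 6 hepatocyte markers summed to 0.730, 0.424, 13.1 and 2.19 CPM over all T cells, with 5 of 6 at 0 in EomesTG spleen, and their part in the high Hspa1a of cluster 2 in WT liver was not tested.

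In liver the ratio of EomesTG to WT varied between clusters. Cluster 0 held 2819 of the 4517 EomesTG liver cells but 13 cells of WT liver, so most of the EomesTG library was not compared. Its EomesTG liver cells had 2427 CPM of Hspa1a. Of 7 clusters with at least 50 cells in both, Hspa1a was higher in EomesTG in 6, beside 6.12% of all measured pairs of a gene and a cluster. Of these, cluster 3 stood just past the threshold of 1.5-fold, at 0.61 (0.39 to 0.82). Cycling-like cluster 8 showed the largest ratio, 2.40 (2.26 to 2.53), at 979 against 186 CPM, effector-like cluster 4 followed with 1.74 (1.62 to 1.85), and cluster 5 (Fos, Ppp1r15a, Klf2) had 1.32 (1.26 to 1.39). The exception was cluster 2, at −0.046 (−0.30 to 0.22), with 1000 against 1032 CPM in 71 and 59 cells. Dnajb1 was higher in 5 of 7 clusters, with −0.45 (−0.75 to −0.14) in cluster 2 and −0.21 (−0.48 to 0.048) in cluster 3. Hsp90aa1 was higher in 4 of 7, Hsph1 in 4 and Hspa8 in 1. Hsp90ab1, Hspe1 and Hspd1 passed the threshold in 0 of 7. In NK receptor-like cluster 11, Hspb1 was at 451 CPM in EomesTG (118 UMIs) and 51.2 in WT (78 UMIs). In cluster 10 the order was the opposite, with 28.4 (22 UMIs) against 86.9 CPM (91 UMIs). These sums can rest on few cells: over all clusters, the highest single cell held 68 Hspb1 UMIs in WT liver and 54 in EomesTG liver. The number of cells behind each sum was not counted.

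**Figure D4:**
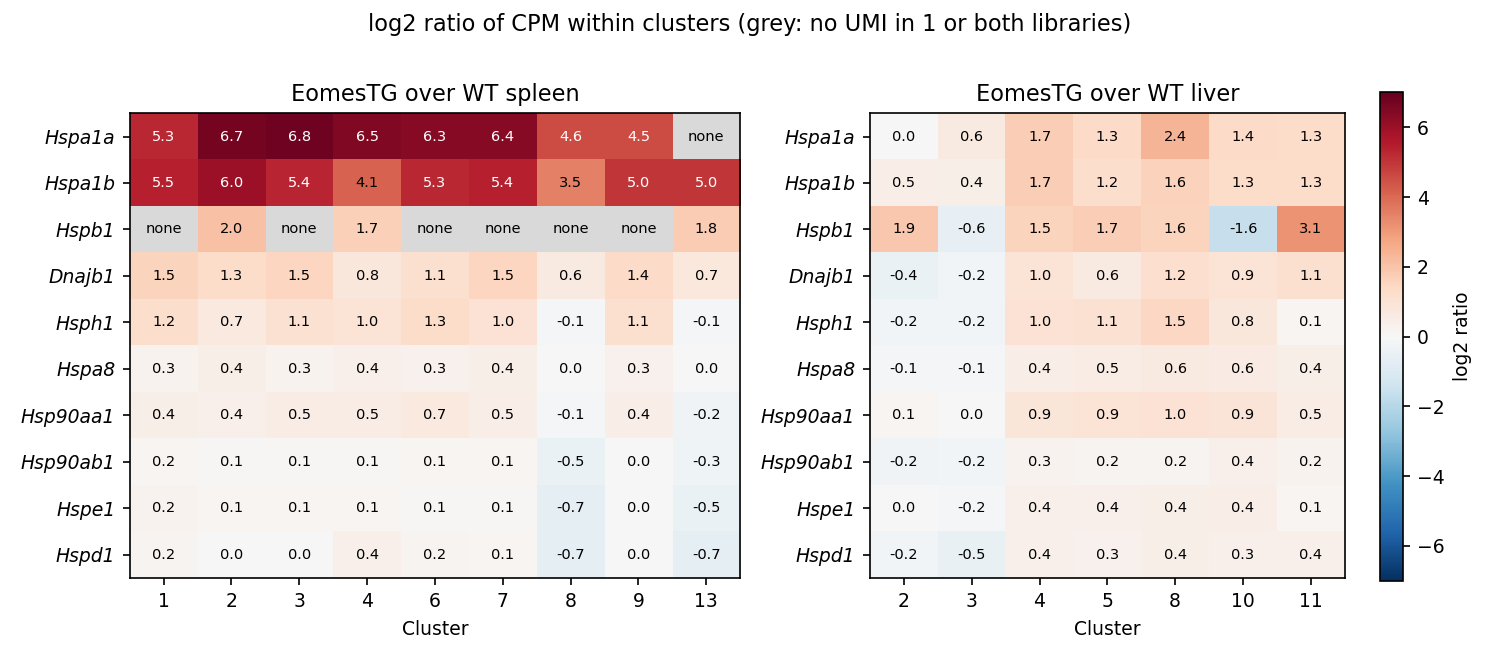
log2 ratio of EomesTG to WT for each gene (rows) within each cluster with at least 50 cells in both libraries (columns), in spleen and liver, coloured on 1 scale. Hspa1a and Hspa1b are raised across the spleen clusters, while Hsp90ab1, Hspe1 and Hspd1 lie between −0.70 and 0.38 in spleen.

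Within clusters, liver also stood above spleen. Hspa1a was higher in liver in 7 of 7 clusters of WT (log2 ratio 5.53 to 8.92), beside 8.27% of all measured pairs, and in 5 of 5 of EomesTG (1.78 to 3.33), beside 8.34%. Dnajb1, Hspa1b and Hsph1 were higher in the same 7 and 5 clusters. Cells of clones found in both organs were compared as well, taking cells with the same TCR beta chain as a clone. UMIs were summed over these clones, so a clone can weigh differently in the 2 organs. In 92 WT clones found in both organs, Hspa1a had 1 UMI in 189 spleen cells (1.11 CPM) and 579 UMIs in 408 liver cells (238 CPM), a log2 ratio of 7.74 (5.26 to 13.0). In 37 EomesTG clones found in both, it was at 172 CPM in 88 spleen cells and 2234 CPM in 457 liver cells, a ratio of 3.70 (3.34 to 4.08). Dnajb1 in the same clones had 2.34 (1.98 to 2.71) in WT and 4.05 (3.61 to 4.52) in EomesTG. The difference between liver and spleen libraries was thus present in the sums over clones found in both organs. No clone was compared with itself, and the clusters of these cells were not held fixed.

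Clone size went with different levels in the 2 liver libraries. In WT liver Hspa1a was at 569 CPM in clones seen once, 489 in clones of 2 to 5 cells and 212 (193 to 233) in clones of over 5 cells. In EomesTG liver it was at 1384 (1355 to 1414), 2063 (1985 to 2143) and 2107 (2079 to 2134) CPM. There it was lowest in clones seen once, and the intervals of the larger clones overlapped. Clones of over 5 cells were 19 in WT liver and 50 in EomesTG liver, so few clones carry these values. In EomesTG liver 2496 of the cells belonged to those 50 clones. When each clone was counted once, the ratio of EomesTG to WT liver for Hspa1a was 1.31 in place of 1.83. The mix of clusters was not held fixed over clone sizes. Hspa1a ran from 186 to 1032 CPM over clusters of WT liver and from 937 to 2610 over those of EomesTG liver. The part of this mix in the levels by clone size was not tested.

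Some members varied between clusters of WT spleen, where Hspa1a was at most 8.57 CPM. Here cluster 13, led by genes that TCR signalling induces such as Egr2, Xcl1 and Nfkbid, held the highest level of the 10 clusters measured for Hspd1 (839 CPM), Hspe1 (1322), Hsp90ab1 (4820), Hsp90aa1 (677), Hspa8 (3186) and Hsph1 (112). Dnajb1, at 77.9 CPM (61.4 to 97.5), overlapped cluster 9 at 75.9. The lowest cluster for Hspd1 was at 91.7 CPM, a range of 9.15-fold, and the range of Hsph1 was 5.32-fold. Hspa1a had 0 UMIs, Hspa1b 2 and Hspb1 1 in the same 116 cells. The EomesTG cells of this cluster had 534 CPM of Hspd1, 965 of Hspe1 and 127 of Hspa1a. Within this cluster Hspd1 and Hspe1 were thus lower in EomesTG and Hspa1a was higher.

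To see which other genes vary as the Hsp70 pair does, the mean of their log2 levels was correlated with that of 9311 genes over the 39 combinations of library and cluster with at least 50 cells. These points share libraries, so the coefficients are descriptions only. After the 2 copies themselves, the closest gene was Dnajb1 (r = 0.92), followed by the immediate early genes Fos (0.88) and Jun (0.87), the small GTPase gene Rhob (0.85), the stress phosphatase subunit gene Ppp1r15a (0.85) and Dusp1 (0.84), which encodes a phosphatase of MAP kinases. Among the members, Hsph1 ranked 12th with 0.82, Hspb1 ranked 15th with 0.80, Hspa8 had 0.63, Hsp90aa1 0.62 and Hsp90ab1 0.27. Hspe1 and Hspd1 had 0.082 and 0.071. Inside EomesTG spleen, the 1836 cells with an Hsp70 UMI after thinning were compared with the 3517 cells without. In all, 8058 genes were compared, and the intervals are not adjusted for that number. The 10 genes highest by the interval bound nearest to equality were Miga1, Fos, Rhob, Jun, Pgap3, Parp11, Arhgap18, Dnajb1, Paip2b and Bag3, in this order. Miga1 was at 12.5 CPM against 5.40, Fos at 295 against 212, Jun at 397 against 293 and Dnajb1 at 199 against 151. Some rest on few UMIs: 46 and 38 for Miga1, 45 and 44 for Pgap3, and 44 and 46 for Bag3. Other members differed less, with log2 ratios of 0.12 (−0.14 to 0.37) for Hsph1 and 0.12 for Hsp90aa1. Hspe1 was at 0.0066, Hspa8 at −0.0010, Hsp90ab1 at −0.031 and Hspd1 at −0.16. The immediate early gene Nr4a1 was lower, at −0.88 (−1.37 to −0.41).

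The other genes of the folding network were read from 4 lists. Of 31 regulators and co-chaperones, 27 had enough UMIs in each comparison, and 2 were higher in EomesTG spleen, beside 3.01% of all genes: Bag3, an exchange factor of Hsp70 (0.92, 0.60 to 1.24), and Hspa4l, an Hsp110 relative (0.60, 0.35 to 0.86). In liver 6 were higher and 1 lower, beside 14.1 and 6.96% of all genes. Bag3 led with 1.92 (1.77 to 2.08), at 84.4 against 22.3 CPM, followed by Hspa4l (1.58), Hspa2, a further Hsp70 (0.81), and Ahsa2, a relative of the Hsp90 activator Ahsa1 (0.74), while Hspbp1, an inhibitor of the Hsp70 cycle named after its value was seen, was at −0.61. Between organs, 5 were higher in WT liver, beside 11.8%, and 11 in EomesTG liver, beside 24.0%, with 0 and 1 lower. Bag3 stood at 2.35 and 3.35 and Hspa2 at 2.11 and 2.84. The list medians were 0.071, 0.32, 0.21 and 0.44 in the 4 comparisons, each below the median of the 10 chaperones.

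Of 17 ER chaperones and genes of the unfolded protein response, 0 were higher in EomesTG spleen and 1 in EomesTG liver, the ER Hsp90 gene Hsp90b1 (0.67, 0.62 to 0.73), beside 3.01 and 14.1% of all genes. Liver exceeded spleen in 5 in WT and 11 in EomesTG, beside 11.8 and 24.0%. The ER Hsp70 gene Hspa5 was at 1.19 and 1.36 in these, and its J-domain partner Dnajb9 at 1.78 and 1.41. Of 7 other mitochondrial chaperones and proteases, 0 passed the threshold in any comparison, and the same held for the 7 matched subunits of the cytosolic chaperonin TRiC. The summed level of TRiC was 1130, 1129, 1161 and 1140 CPM.

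**Figure D5:**
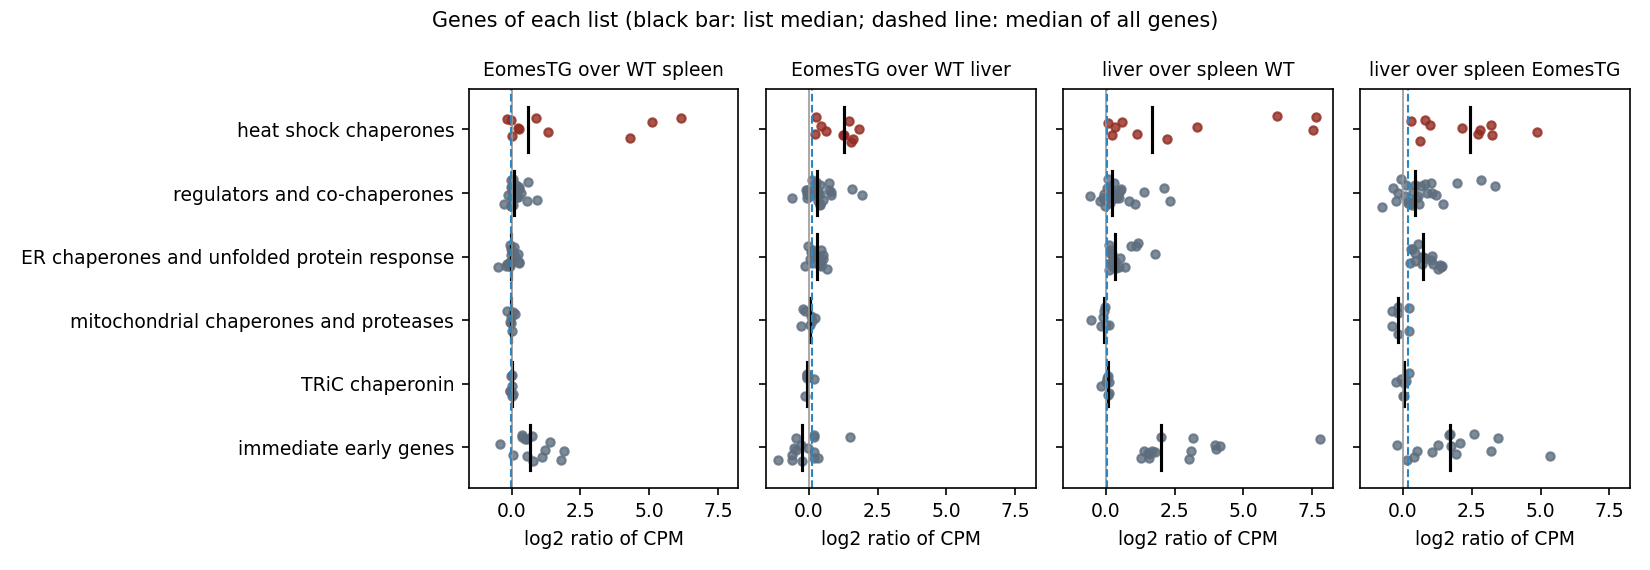
log2 ratio of CPM for the genes of each list in the 4 comparisons, each point 1 gene, with the list median as a black bar and the median of all genes as a dashed line. The 10 chaperones spread furthest in liver over spleen of WT, where 3 of them exceed 6, and the TRiC and mitochondrial lists lie between −0.53 and 0.23.

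Immediate early genes, which cells switch on within minutes of a signal or of tissue dissociation, moved in part with the inducible chaperones. The 15 genes of this list summed to 1843, 2807, 9368 and 8655 CPM, with none at 0. Of 14 measured, 7 were higher in EomesTG spleen, beside 3.01% of all genes, with Fosb at 1.91, Fos at 1.79, Socs3 at 1.39 and Nr4a1 at 1.10. In WT liver 15 of 15 were higher than in WT spleen, beside 11.8%, and in EomesTG liver 11 of 15 were higher than in EomesTG spleen, beside 24.0%. In liver the lists parted. Hspa1a, Dnajb1 and Bag3 were higher in EomesTG, while 3 of 15 immediate early genes were lower (Fosb −1.10, Nfkbia −0.60 and Socs3 −0.59) and 1 was higher (Ier3 1.49), beside 6.96% of all genes lower and 14.1% higher. Their part in the chaperone differences was not tested.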

How the data were processed

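The deposited matrices hold UMI counts without normalization, made by the authors with Cell Ranger on mm10 per the submitters' processing notes (software version 3.1.0 and format version 2 per the file headers). The deposited contig tables served to define clones, as cells with the same V gene, CDR3 nucleotides and J gene in a productive TRB chain. The deposited barcodes were already filtered by the authors. Filters of 500 UMIs and 300 genes as minimum and 10% mitochondrial UMIs as maximum left 5335, 5726, 3150 and 4521 of 5415, 5774, 3327 and 4587 barcodes. No doublet caller was run, and barcodes with 2 productive TRB chains were kept, with an alternative without them. Clustering used 2000 variable genes without the chaperone lists, immediate early, Eomes, antigen receptor, mitochondrial, ribosomal protein and sex-linked genes, 30 principal components, 15 neighbours and Leiden resolution 1. A cluster of 29 other cells (Jchain, H2-Aa, Lyz2) was left out.

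UMIs were summed per library or per cluster of at least 50 cells, and ratios of CPM carry exact conditional binomial intervals, levels exact Poisson and shares exact Clopper-Pearson intervals, all at 95%. PCR error, capture error and the spread between cells are not covered. Unthinned Hspa1a counts per cell had a variance of 9.99 times the mean in WT liver and 16.3 times in EomesTG liver. Intervals of levels and ratios are therefore too narrow for genes spread unevenly over cells. A group with 0 UMIs entered a fold as 3 counts. The ratio code was tested on simulated data with known answers. The 10 members and the lists were chosen with earlier results of these data known. The genes named are all 10 members and, from each list and comparison, up to 4 genes past 1.5-fold with at least 50 UMIs, by the interval bound farthest from equality. For the comparisons between organs, only some of the genes that this rule selects are given. Levels for the correlation were log2 of CPM plus 5, for genes with at least 200 UMIs. The subunit Cct6a of TRiC was not matched. Promoter windows come from RefSeq (GRCm38.p6), and none was matched for Hspa8, Hsp90aa1 and Hsp90ab1. Calculations used Python 3.11.15, numpy 2.4.6, scipy 1.17.1, scanpy 1.11.5, leidenalg 0.10.2 and biopython 1.88. One gene of the list of regulators and co-chaperones that the naming rule selects is not reported here.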

Additional observations from a re-analysis of the deposited data

Results flagged for a closer look

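Among the genes named here, 10 had a ratio of EomesTG to WT on opposite sides of equality in spleen and liver, with both counting intervals on their side. Each is 1 library against 1 library in each organ, and the difference between organs was not tested. Higher in EomesTG spleen and lower in EomesTG liver were 5 immediate early genes and Hspbp1. Fos was at 1.79 (log2, 1.72 to 1.86) in spleen and −0.54 (−0.57 to −0.51) in liver, so that the liver ratio minus the spleen ratio was −2.33. This difference was −3.01 for Fosb, −1.98 for Socs3, −1.57 for Nr4a1, −0.98 for Nfkbia and −0.74 for Hspbp1. The other four went the other way. Ier3 was at −0.40 (−0.67 to −0.14) in spleen and 1.49 in liver, a difference of 1.89, and Hsp90b1 at −0.088 and 0.67, a difference of 0.76. Hspd1 was at −0.18 (−0.24 to −0.11) in spleen and 0.43 (0.37 to 0.50) in liver, a difference of 0.61. Hsp90ab1 was at −0.018 in spleen and 0.25 in liver, a difference of 0.27. The spleen values of Hspd1 and Hsp90ab1 changed sign under other weights of the cells, and those of the 8 genes that are not members were not recomputed.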

How the results depend on the processing

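Counts of chaperones past 1.5-fold stayed within 1.5 times of those reported under 12 alternatives each (4 to 5 in EomesTG over WT spleen, 6 to 8 in liver, 6 to 7 in liver over spleen of WT and 6 to 9 of EomesTG), and none was 1.5-fold lower in any. Of the alternatives for the main results, 129 stayed within the limit and 21 moved beyond it. For the single genes and the cell shares of the other members, 179 stayed, 209 moved beyond the counting interval and 8 changed sign. The alternative without clusters 0, 1 and 14 was chosen after seeing the data. The log2 ratio of Hspa1a in EomesTG over WT liver was 1.67 with totals without ribosomal protein and mitochondrial genes, 1.71 with median-of-ratios scaling, 1.77 as a mean over cells, 1.31 with each clone counted once, 1.765 after thinning to 2000 UMIs and 1.35 without clusters mostly of 1 library. In liver over spleen of EomesTG the same 6 settings gave 2.88, 3.03, 3.42, 2.999, 3.35 and 2.73. The ratio of Hsp90ab1 in EomesTG over WT spleen changed sign as a mean over cells (0.073), with each clone once (0.071), after thinning (0.081) and without clusters mostly of 1 library (0.030). That of Hspd1 changed sign as a mean over cells (0.0073) and with each clone once (0.023). Hspe1 in liver over spleen changed sign to −0.080 in WT and −0.019 in EomesTG with totals without ribosomal protein and mitochondrial genes. The causes were not tested. At Leiden resolution 2.0, Hspa1a was higher in EomesTG spleen in 15 of 15 clusters, where more clusters were made. With 5 alternatives beside the main setting, the count of clusters with higher Hspa1a ran from 7 to 15 in spleen and from 5 to 8 in liver. The number of clusters compared can differ between these settings. The share of cells with an Hspa1a UMI depends on depth: it was 0.303, 15.5, 28.9 and 55.8% at 1000 UMIs and 1.20, 34.6, 47.0 and 68.6% without thinning. No paired analysis was possible because the labels carry no replicate numbers and the results come from no test. The 2 organs of a genotype share a pool, and an additive fit of organ and genotype over the 4 libraries was not run. Depth limits the values of Hspb1, Hspa1a and Hspa1b in WT spleen, which rest on 4, 82 and 94 UMIs.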
